A study of Mus musculus with 8 samples.

Results

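The genes of the cytosolic ribosomal proteins were examined in RNA-seq libraries of NMuMG, a mouse line of mammary epithelium. All rows of the deposited count table whose symbol is that of a parent ribosomal protein gene of the large (*Rpl*, *Rplp*) or the small (*Rps*, *Rpsa*) subunit were taken, and rows marked as pseudogenes were left out. This gave 83 of 37310 genes, 51 of the large and 32 of the small subunit, all annotated as protein-coding. There were 4 groups of 2 biological replicates each, namely control cells, control cells given TGFβ1 at 10 ng/ml during 2 h, *Lnc-Nr6a1*-depleted (KO) cells, and KO cells given the same treatment. All were NMuMG cells grown in medium with serum and insulin. The depleted cells derive from single sorted cells in which CRISPR-Cas9 deleted a fragment between sites in the promoter and in the first exon of the long non-coding RNA *Lnc-Nr6a1*, so a difference between genotypes cannot be told apart from a difference between clones.

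A cytosolic ribosome joins a small subunit, which reads the mRNA, to a large subunit, which forms the peptide bond, and each ribosomal protein is normally present once per particle, apart from the paired acidic stalk proteins. Their mRNAs are among the most abundant of growing cells. They belong to the TOP mRNAs, which start with a cytosine followed by pyrimidines and whose translation depends on the kinase mTOR. Ribosomal protein genes have many processed pseudogenes, intronless copies that can share long stretches of sequence with the parent mRNA.

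The libraries held 4297832 to 13574397 counts, the fewest in KO replicate 1 without TGF-β. The row of *Lnc-Nr6a1* held 3 and 14 counts in untreated control cells, 25 and 35 in treated control cells, 11 and 7 in the untreated libraries labelled KO and 0 and 0 in the treated ones, so it separated the genotypes after TGF-β but not in untreated cells. Directions between genotypes below rest on the labels. Of the 8 epithelial markers examined, the keratins *Krt8*, *Krt18* and *Krt19* and the E-cadherin gene *Cdh1* were high, *Epcam* and *Krt7* were near 0 and the claudin genes *Cldn3* and *Cldn7* had no count in any library, and the summed level of the fibroblast, endothelial, immune and adipocyte markers was 4.34 to 9.04 CPM (counts per TMM-scaled library size) across libraries. The myoepithelial sum rose from between 2.79 and 5.43 CPM in untreated cells to between 23.2 and 41.9 CPM with TGF-β, through *Krt14*, and its part in the results below was not tested.

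In each library, the ribosomal protein genes took a small and narrow share of the counts, higher in control cells after TGF-β than before and lower after TGF-β in the libraries labelled KO. The large subunit genes held 1.13% and 1.06% of the counts in control cells and 1.29% and 1.19% in treated control cells. In the libraries labelled KO they held 1.07% and 0.972% without and 0.932% and 0.949% with TGF-β. Untreated genotypes overlapped for the large subunit. The treated control libraries lay above the untreated ones without overlap, and the treated libraries labelled KO below theirs. The small subunit genes gave the same order of group means, with no overlap between untreated genotypes, at 0.866% and 0.823% in control cells, 0.993% and 0.900% in treated control cells, 0.735% and 0.719% in the untreated and 0.691% and 0.698% in the treated libraries labelled KO. Group means for the small subunit were 0.844% ± 0.0305, 0.947% ± 0.0656, 0.727% ± 0.0111 and 0.694% ± 0.00488 (SD, n = 2). The 95% Wilson interval of the large subunit share ran from 0.944% to 0.954% in the deepest library and from 1.06% to 1.08% in the shallowest, and replicates differed by more than their intervals except for the small subunit share of the treated libraries labelled KO. Reads are not independent molecules, and intervals cover counting error only. The share of 3 RNAs lacking poly(A), mostly the 7SK RNA, differed between the same groups, at 1.68% and 1.77% in control cells, 2.50% and 2.59% in treated control cells, and 2.05% and 2.03% in the untreated and 1.83% and 1.92% in the treated libraries labelled KO. With these RNAs left out of the totals, the members together held 1.97%, 2.24%, 1.78% and 1.67% of the counts on average in these groups. These shares are given as a description, with no test. Fewer cells and less RNA per cell cannot be told apart in such bulk libraries.

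**Figure D1:**
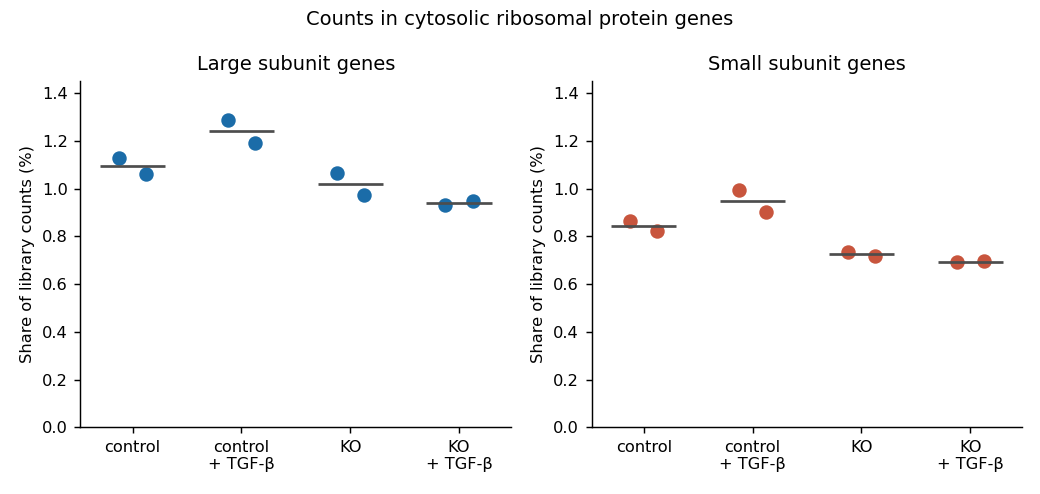
Share of all library counts (percent, vertical axis from 0) on large and small subunit genes in the 4 groups. Each point is a library and each line the mean of 2 replicates; treated control libraries sit highest in both panels, at 1.19% and 1.29% for the large subunit, and the treated libraries labelled KO lowest, at 0.932% and 0.949%.

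Of the 83 genes, 80 had enough counts to be tested, 48 of the large and all 32 of the small subunit. The other 3, *Rpl3l*, *Rpl10l* and *Rpl39l*, are paralogues best known from striated muscle or testis. *Rpl10l* and *Rpl39l* had 1 count each over the 8 libraries and *Rpl3l* had none, which allows it at most 0.0342% of the counts of the pair with *Rpl3* (a floor of 3 counts over 8779). Although the proteins are needed in equal numbers, the levels per kb of exon (RPKM, the CPM divided by the kb of merged exons in the annotation) of the tested genes differed 501-fold within the large and 163-fold within the small subunit. *Rpl8*, which lines the centre where peptide bonds form, was highest at 1699 ± 222 RPKM (SD over the 8 libraries), followed by *Rplp1*, a protein of the acidic stalk, at 1372 ± 226 and *Rpl4* at 1325 ± 205. *Rplp1* and *Rpl4* did not differ beyond their spread. *Rps15*, at 811 ± 62.7 RPKM, led the small subunit. The lowest levels were those of *Rpl11* (6.23 ± 1.05), *Rpl21* (5.89 ± 0.884) and *Rpl29* (3.39 ± 1.07 RPKM) in the large subunit, and of *Rps6* (7.84 ± 1.22), *Rps29* (7.45 ± 1.84) and *Rps13* (4.97 ± 1.65 RPKM) in the small one. *Rpl11* binds Mdm2 together with *Rpl5* (21.6 ± 2.74 RPKM) and the 5S rRNA, and *Rps6* is the classical substrate of the S6 kinases. The other proteins of the stalk, *Rplp0* and *Rplp2*, stood at 732 ± 75.8 and 43.4 ± 7.24 RPKM, and *Rpsa*, also known as a laminin receptor precursor, at 368 ± 50.01 RPKM.

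The level per kb was lower for genes whose coding sequence recurs elsewhere in the genome. For each gene the longest annotated coding sequence was divided into all windows of 75 bases, the read length of the labels, and every window was searched on both strands of the NCBIM37 genome outside the gene itself. Of the 80 tested genes, 13 had fewer than 25% of their windows elsewhere and a median of 259 RPKM, and 23 had all windows elsewhere and a median of 16.5 RPKM, none of them above 55.7 RPKM. The 44 genes in between had a median of 87.5 RPKM. Among the 13, the levels differed 164-fold in the large subunit, or 31.9-fold without *Rpl24*, and 4.32-fold in the small subunit. Across the 80 genes, Spearman's rho between the share of windows and the level was -0.69, a description over genes that share the same libraries and differ in length and base composition. With the length of the transcript that has the longest coding sequence in place of the merged exons, rho was -0.75. Among the genes with no window elsewhere were *Rps3* at 252 ± 72.3 RPKM, but also *Rpl24* at 10.3 ± 0.859 RPKM. The row of *Rpl24* spans chr16:55966388-56009026, its longest annotated coding sequence has 3153 bases, and its exons meet those of *Pcnp* on the opposite strand. At the other end, *Rps16* (14.4 ± 8.84 RPKM) had every window in another place as well. How the reads that fit several places were counted is not stated in the sources used here, and its part in these levels was not tested.

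**Figure D2:**
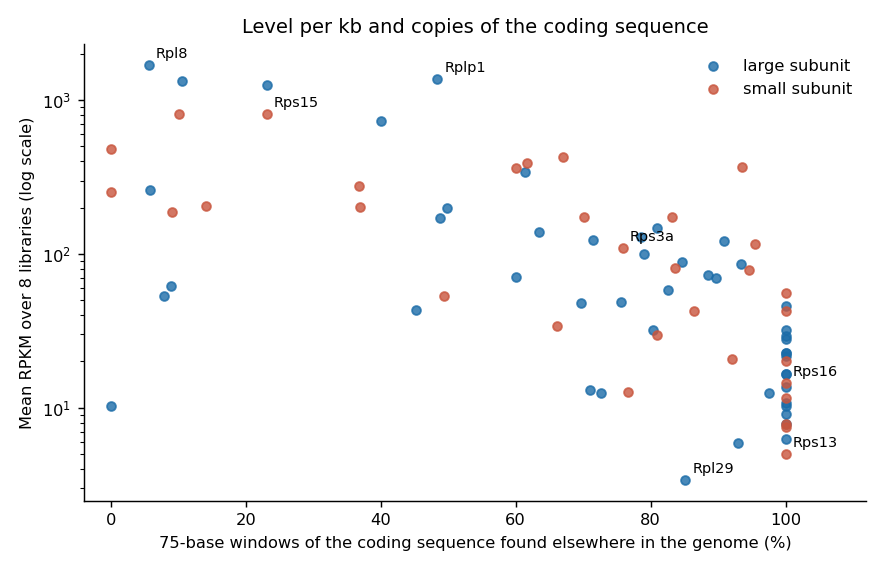
Mean RPKM over the 8 libraries (log scale) of the 80 tested genes against the percent of 75-base windows of their coding sequence that also occur elsewhere in the NCBIM37 genome. Each point is a gene; the 23 genes at 100% all lie at or below 55.7 RPKM, and *Rpl8*, *Rplp1*, *Rpl4* and *Rpl32*, the highest, lie at or below 48.3%.

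The 163 rows of the table named as pseudogenes of ribosomal protein genes held a further 0.496 to 0.599% of the counts of a library. For several parents they held more counts than the parent itself, with 86.7% of the joint counts for *Rpl3*, 88.4% for *Rpl10a*, 82.4% for *Rpl19*, 96.3% for *Rpl38* and 93.2% for *Rps16*. The most counted were *Rpl3-ps1* on the X chromosome, at 553 to 848 CPM, *Rpl10a-ps1* at 451 to 695 CPM and *Rpsa-ps10* at 366 to 661 CPM. The low levels of parents such as *Rps16* and *Rpl38* are therefore levels of one row among several with shared sequence, and are uncertain.

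Some proteins have a second gene, and the split between them varied from pair to pair. The following 60 bases open the coding sequences of *Rpl36a* and its intron-poor paralogue *Rpl36al* and of *Rps27* and *Rps27l*, a gene induced by p53, and are shown to illustrate how many bases separate the reads of such pairs (GENCODE vM1 on NCBIM37, coding strand, 5′ to 3′, with bases that differ within the pair in capitals).
Rpl36a: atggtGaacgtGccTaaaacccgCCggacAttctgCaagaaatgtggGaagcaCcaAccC
Rpl36al: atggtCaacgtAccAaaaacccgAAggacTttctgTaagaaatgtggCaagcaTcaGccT
Rps27: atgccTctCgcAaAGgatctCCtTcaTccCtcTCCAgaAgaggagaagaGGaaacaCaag
Rps27l: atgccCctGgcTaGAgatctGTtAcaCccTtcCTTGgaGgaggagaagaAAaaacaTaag
*Rpl36a* (chrX:131120193-131122601, plus strand) and *Rpl36al* (chr12:70283718-70285070, minus strand) differed at 39 of 321 coding bases, 11 of them in the stretch shown. *Rps27* (chr3:90016593-90017573, minus strand) and *Rps27l* (chr9:66793893-66797323, plus strand) differed at 77 of 255 aligned bases, 18 of them in the stretch shown. The paralogue held 82.9% ± 3.07 of the counts of the first pair and 95.7% ± 0.816 of those of the second (SD, n = 8 libraries). However, all windows of *Rpl36a* and *Rps27* occur elsewhere in the genome, against 69.6% and 9.02% of those of *Rpl36al* and *Rps27l*. With the counts of pseudogene rows added to their parents, an alternative chosen after seeing the data, *Rpl36al* held 44.2% ± 5.23 of its pair. No such counts were added to *Rps27* or *Rps27l*, so for that pair this alternative could not test the share. *Rpl7l1* held 20.6% ± 2.36 of its pair with *Rpl7*. *Rpl22l1*, whose parent *Rpl22* encodes a protein that binds RNA outside the ribosome, held 25.1% ± 3.97 of the counts of the pair and 66.2% per kb. It was lowest at 17.7% in untreated KO replicate 1 and highest at 30.7% in treated KO replicate 1, while control libraries lay between 23.3% and 28.6%, so the groups overlapped.

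Without TGF-β, the libraries labelled KO were compared with control cells to ask what depletion alone changes. Most ribosomal protein genes lay slightly below their control level, and only *Rps3a* passed the test. A gene was called with an adjusted p below 0.05 in edgeR's quasi-likelihood test (Benjamini-Hochberg over the 13028 genes tested) and an absolute log2 fold change above 0.5. Of all genes tested 1.83% were called, 1.03% as higher and 0.798% as lower, and of the 80 members 1 was. *Rps3a* (ENSMUSG00000028081.6, chr3:85941862-85946624, minus strand), a protein of the small subunit near the exit of the mRNA, was at 115 and 128 CPM in control cells and at 42.5 and 50.4 CPM in the libraries labelled KO. The groups did not overlap, with a log2 fold change of -1.38 (SE 0.24, adjusted p = 0.0216). With 1 of the 4 untreated libraries left out, the fold change lay between -1.27 and -1.51 and no member was called, with 0.305% to 0.388% of all genes called. The median log2 fold change was -0.13 for the large and -0.08 for the small subunit, against 0.02 for all genes, and 57 of 80 members were below 0. The lowest large subunit genes, none of which passed the test, were *Rpl28* at -0.67 (adjusted p = 0.266) and *Rpl34* at -0.61 (0.0977), and the highest were *Rpl38* at 0.39 and *Rpl37* at 0.33. With the counts of pseudogene rows added to their parents, *Rpl28* stood at -0.82 (adjusted p = 0.0802) and *Rpl38* at 0.13. Among the small subunit genes *Rps15a* followed *Rps3a* at -0.51, while *Rps29* at 0.56 and *Rps23* at 0.32 were highest, again without passing the test.

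The lower values gathered on chromosomes 3 and 7, as they do for genes in general in this comparison. All 14 tested members on chromosome 7 were below 0, with a median of -0.41, and all 4 on chromosome 3, with a median of -0.60. The other 62 had a median of -0.04, with 39 below 0. For all genes tested the medians were -0.25 on chromosome 7, -0.34 on chromosome 3 and 0.05 elsewhere, so that the members' values on these chromosomes are not independent of that pattern. After TGF-β the members' medians were -0.48 on chromosome 7, where 12 of 14 were below 0, 7 were called lower and 1 higher, -0.51 on chromosome 3 with 2 of 4 called lower, and -0.28 on the others with 10 of 62 called lower. For all genes these medians were -0.14, -0.34 and 0.01, and 12.7%, 19.3% and 5.35% were called lower.

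**Figure D3:**
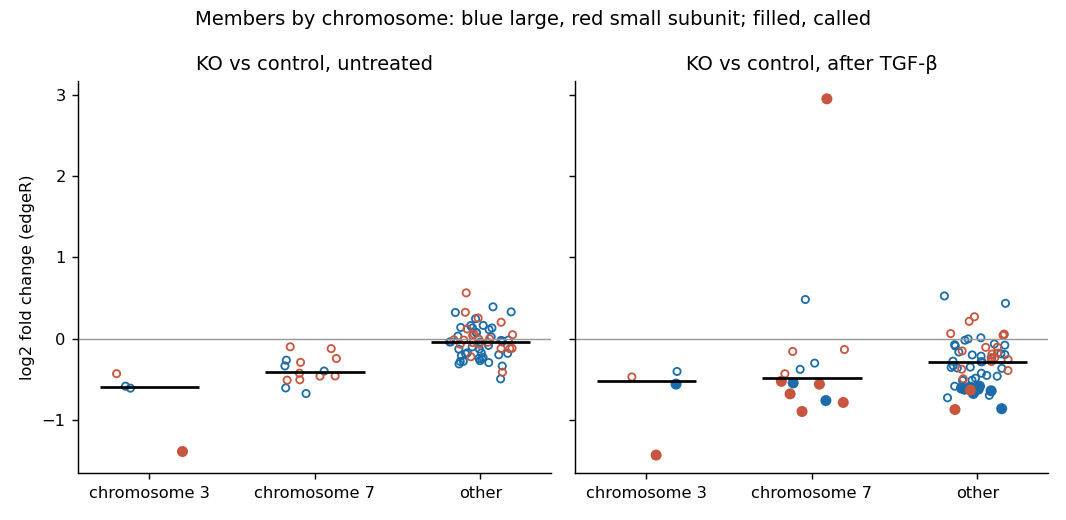
log2 fold change (vertical axis) of the 80 tested members between libraries labelled KO and control libraries, untreated (left) and after TGF-β (right), by chromosome; points are genes, filled where called, and lines are medians. In untreated cells every member on chromosomes 3 and 7 lies below 0 (medians -0.60 and -0.41), and after TGF-β the median of the other 62 members is also below 0, at -0.28.

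TGF-β, which starts an epithelial-mesenchymal transition in these cells, was followed for 2 h in control cells to ask for early changes. Most ribosomal protein genes were slightly higher after treatment, 5 rose past the threshold and 1 fell. Of all genes 9.16% were called, 4.69% as higher and 4.47% as lower, against 5 of 80 members higher and 1 lower. *Rpl10* (chrX:71516151-71518474, plus strand), a late-joining protein needed for subunits to join, rose from 38.7 and 39.8 to 70.8 and 56.9 CPM (log2 fold change 0.70, SE 0.17, adjusted p = 0.034). *Rps24* (chr14:25309903-25315368, plus strand), mutated in some patients with Diamond-Blackfan anaemia, rose from 288 and 340 to 436 and 545 CPM (0.64, SE 0.15, adjusted p = 0.0328). In both genes the treated libraries lay above the untreated ones, and the treated replicates differed more from each other than the untreated ones. *Rpl7* (0.62, adjusted p = 0.0288), *Rps4x* (0.61, adjusted p = 0.0265), the X-linked gene of an rRNA-binding small subunit protein, and *Rpl32* (0.54, adjusted p = 0.0385) rose as well. *Rpl35* had a larger value of 0.73 without passing the test (adjusted p = 0.101), and *Rps3a* stood at 0.65 (adjusted p = 0.106). Leaving out a library moved *Rps3a* between 0.23 and 0.96. The median was 0.25 for the large and 0.20 for the small subunit and 0.02 for all genes. With pseudogene rows added to their parents, 7 members were called, with 9.2% of all genes. *Rpl10* was then at 0.39 (adjusted p = 0.199) and not called, while *Rpl23a* (0.80, adjusted p = 0.00708) and *Rpl38* (0.63, adjusted p = 0.0335) were called, and the small subunit median was 0.28. The small subunit median was 0.12 without treated control replicate 1 and 0.33 without treated control replicate 2. The lowest large subunit genes were *Rpl28* (-0.48) and *Rpl21* (-0.37), neither past the test. With pseudogene rows added they were 0.04 and -0.05. Scaled by library totals instead of TMM factors, which moves the median of all genes to -0.13, the subunit medians became 0.11 and 0.06 and *Rps16* was the only member called. No member was called without control replicate 1 or 2, 1 without either untreated KO replicate and 10 without treated control replicate 1. Of all genes 1.05% and 2.28%, 4.51% and 4.46%, and 11.1% were called in these fits.

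*Rps16*, whose protein contacts the tRNA bound at the P site, moved against the others. The row (ENSMUSG00000037563.8, chr7:29135671-29137715, plus strand) was at 12.7 and 10.7 CPM in control cells and at 1.22 and 4.34 CPM after TGF-β, a change of -2.09 on the log2 scale (SE 0.45, adjusted p = 0.0244). Leaving out a library moved this change between -3.25 and -1.44. In the libraries labelled KO the row was at 12.6 and 9.17 CPM without and at 21.7 and 20.8 CPM with TGF-β (0.98, SE 0.41, adjusted p = 0.192). After TGF-β, the libraries labelled KO therefore exceeded control cells, with a log2 fold change of 2.95 (SE 0.45, adjusted p = 0.00467), while in untreated cells the genotypes overlapped (-0.12, adjusted p = 0.924). The intronless row *Rps16-ps2* (chr5:129633952-129634446, minus strand), inside the span of the gene *Gpr133* on the opposite strand, held 12281 counts over the 8 libraries, against 901 on *Rps16*, and moved in parallel. It was at 133 and 168 CPM in control cells, 14.0 and 58.4 CPM in treated control cells, 115 and 113 CPM in the untreated and 308 and 314 CPM in the treated libraries labelled KO (-2.06, adjusted p = 0.031 with TGF-β in control cells, and 3.11, adjusted p = 0.00564 between genotypes with TGF-β). All windows of the *Rps16* coding sequence occur elsewhere in the genome, at 3 other places, and the 2 rows cannot be told apart as a source of the reads. Their replicates in treated control cells differed by more than 3-fold.

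**Figure D4:**
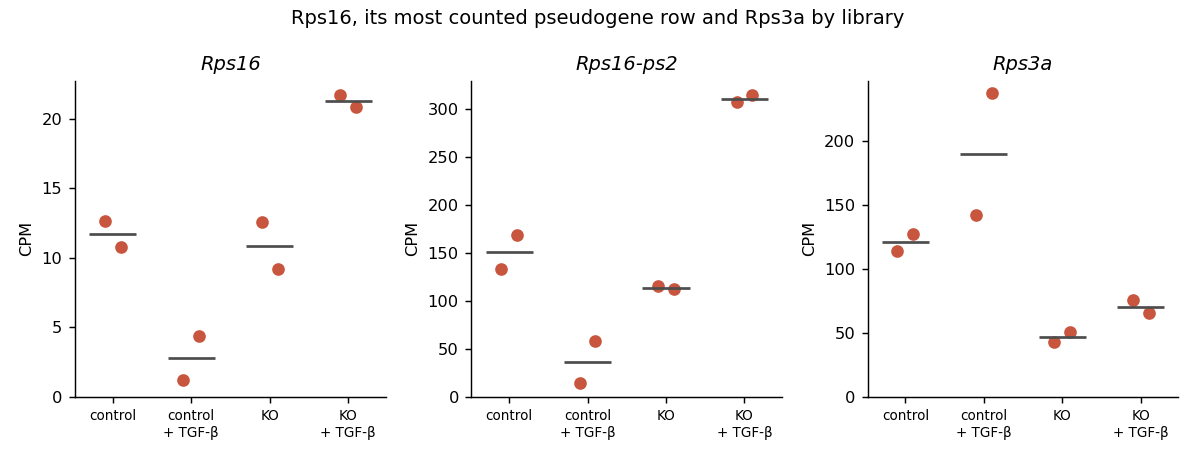
CPM (vertical axes from 0, a different scale in each panel) of *Rps16*, of the row of its pseudogene *Rps16-ps2* and of *Rps3a* in the 8 libraries; points are libraries and lines are means of 2 replicates. *Rps16* and *Rps16-ps2* are lowest in treated control cells and highest in the treated libraries labelled KO, while *Rps3a* is lower in all libraries labelled KO (42.5 to 75.4 CPM) than in all control libraries (115 to 238 CPM).

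In the libraries labelled KO, no ribosomal protein gene was called after TGF-β. Of all genes 6.82% were called in that comparison, 4.25% as higher and 2.57% as lower, and 9 members (11.2%) had an unadjusted p under 0.05, against 22.7% of all genes, while DESeq2 also called 0. The medians were 0.04 for the large and 0.07 for the small subunit and 0.00 for all genes. With a library left out they ran from -0.0052 (without untreated KO replicate 2) to 0.088 (without untreated KO replicate 1) and from 0.048 (without untreated KO replicate 2) to 0.13 (without treated KO replicate 1). With library totals for scaling they turned to -0.12 and -0.09 with that of all genes at -0.15, and it is on this scale of shares that the treated libraries labelled KO lay below the untreated ones. *Rps16* (0.98), *Rpl28* (0.68, adjusted p = 0.16), *Rps3a* (0.59, adjusted p = 0.171) and *Rpl22l1* (0.45, adjusted p = 0.203) had the highest values. *Rps2* (-0.70, adjusted p = 0.154), *Rpl38* (-0.64), *Rps23* (-0.57) and *Rpl37* (-0.45) had the lowest. With pseudogene rows added, *Rpl28* was called higher (0.86, adjusted p = 0.0322), with 6.88% of all genes called, and *Rpl38* was at 0.08. In the interaction of genotype and TGF-β, tested over all genes by the adjusted p alone, 0% of all genes and none of the members passed. There 8 members (10%) had an unadjusted p under 0.05, against 8.7% of all genes, and DESeq2 called 1 member and 0.331% of all genes. The responses of control cells and of the libraries labelled KO were thus not shown to differ, although the interaction of *Rps16* was 3.07 (SE 0.61, adjusted p = 0.392). The 2 comparisons share no library, and of the 80 members 42 were above 0 in both, 8 below 0 in both and 30 of opposite sign, against 34.8% of all genes above and 33.5% below 0 in both.

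After TGF-β, the libraries labelled KO were lower than treated control cells in ribosomal protein genes of both subunits. Of the members 19 were called lower and 1, *Rps16*, higher, against 6.57% of all genes called lower, 8.47% called higher and 15% called in either direction. The median was -0.36 for the 48 large and -0.24 for the 32 small subunit genes, with 44 and 25 of them below 0, and -0.01 for all genes. Of the small subunit, 8 genes were called lower. *Rps3a* was at 142 and 238 CPM in treated control cells and at 75.4 and 65.2 CPM in the treated libraries labelled KO, a log2 fold change of -1.43 (SE 0.23, adjusted p = 0.00575) against -1.38 in untreated cells. The treated control replicates differed widely, yet both lay above both libraries labelled KO. *Rps15a* (chr7:125247892-125259700, minus strand) was at 332 and 289 CPM in treated control cells and at 167 and 167 CPM in the treated libraries labelled KO (-0.90, SE 0.15, adjusted p = 0.00658). *Rps24* was at 436 and 545 CPM in the former and at 263 and 274 CPM in the latter (-0.87, SE 0.15, adjusted p = 0.00781). *Rps3*, a protein at the mRNA entry that also takes part in DNA repair and is encoded at chr7:106626406-106632248 (minus strand), was at 1780 and 1395 CPM in treated control cells and at 885 and 958 CPM in the libraries labelled KO (-0.78, adjusted p = 0.0101). No window of its coding sequence occurs elsewhere in the genome. *Rps4x* was lower as well (-0.63, adjusted p = 0.0161).

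Of the large subunit, 11 genes were called lower in the treated libraries labelled KO than in treated control cells. *Rpl39* (chrX:34622515-34625397, minus strand), a small protein of the exit tunnel wall, was at 289 and 433 CPM in treated control cells and at 198 and 200 CPM in the libraries labelled KO (-0.86, SE 0.19, adjusted p = 0.0177). With a library left out this value lay between -1.11 and -0.54. *Rpl13a* (chr7:52380928-52391787, minus strand), which also silences translation of inflammatory mRNAs, was at 1281 and 1075 CPM in treated control cells and at 646 and 744 CPM in the libraries labelled KO (-0.76, SE 0.16, adjusted p = 0.0146). Its exons overlap those of *Flt3l* and of 3 small nucleolar RNA genes on the same strand, whose reads cannot be told apart from its own. *Rpl36al* (-0.67), *Rpl10* (-0.64), *Rpl35a* (-0.62), *Rpl37a* (-0.62), *Rpl32* (-0.61), *Rpl26* (-0.59), *Rpl22* (-0.58), *Rpl34* (-0.56) and *Rpl27a* (-0.54) followed, with adjusted p from 0.0182 to 0.0493. Leaving out a library moved *Rpl37a* between -0.82 and -0.37, *Rpl34* between -0.71 and -0.37 and *Rpl27a* between -0.73 and -0.36. *Rpl10*, *Rpl32*, *Rps24* and *Rps4x* also rose with TGF-β in control cells, and *Rps16* fell there. For each of these genes the treated control libraries enter both comparisons, so the results are not independent. The abundant *Rpl4* (-0.35, adjusted p = 0.0758) and *Rpl8* (-0.35, adjusted p = 0.0973) did not pass the test, nor did *Rpl5* (-0.33), *Rplp1* (-0.24), *Rplp2* (-0.30), *Rpsa* (-0.19) and *Rplp0* (-0.02). The highest values of the large subunit were those of *Rpl11* (0.53, adjusted p = 0.142) and *Rpl28* (0.48), of which *Rpl28* was at -0.0021 with pseudogene rows added. Within the small subunit *Rps29* (0.27) came next after *Rps16*.

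The number of calls rested on both treated libraries labelled KO. Without replicate 1 of these, 3 members were called lower and *Rps16* higher, with 3.40% of all genes lower and 5.77% higher, so that the members' share of lower calls was near that of all genes. Without replicate 2 the members' counts were the same, with 1.06% of all genes lower, and when the 4 treated libraries were fitted alone 2 members were lower and 1 was higher, with 1.16% of all genes lower. The small subunit median was -0.17 without treated control replicate 1 and -0.42 without replicate 2, and -0.17 without treated KO replicate 1. *Rps3a*, *Rps15a* and *Rps16* were called with each other setting listed under the processing and *Rps24* in each fit that left out a library. When the counts of pseudogene rows were added to their parents, 17 of the 20 members remained called, *Rpl23a* (-0.52, adjusted p = 0.026) was called as well, and the small subunit median moved from -0.24 to -0.38, while *Rpl10*, *Rpl34* and *Rpl35a* no longer passed. The untreated and the treated comparison of genotypes share no library. Of the 80 members 50 were below 0 in both, 4 above 0 in both and 26 of opposite sign, against 34.5% of all genes below and 35.7% above 0 in both.

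**Figure D5:**
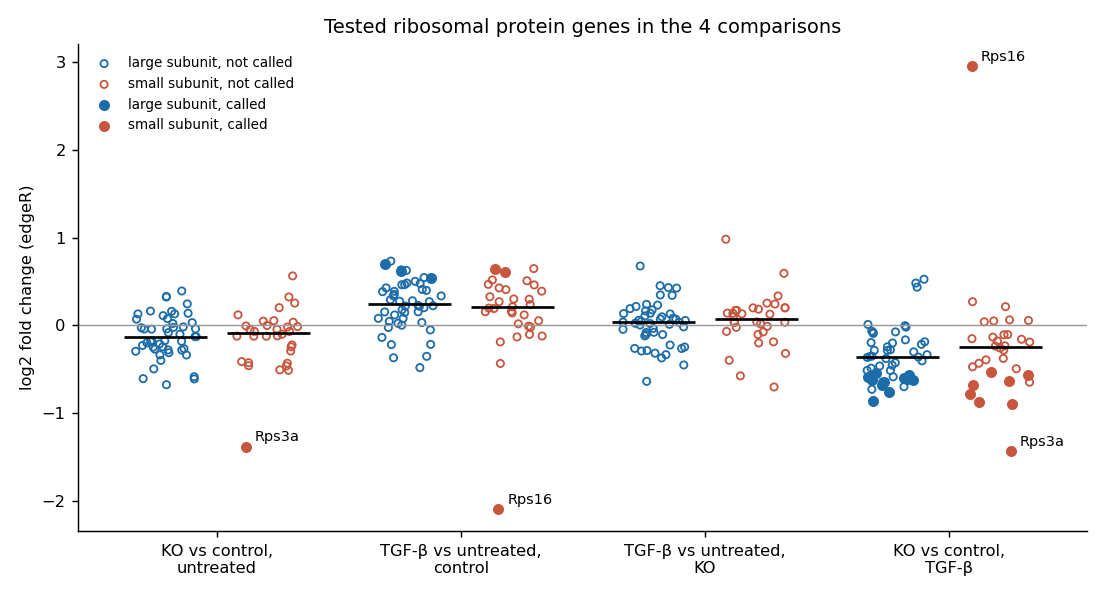
log2 fold change (vertical axis) of the 80 tested members in the 4 comparisons, large subunit in blue and small subunit in red; points are genes, filled where called, and lines are medians. Most members sit above 0 with TGF-β in control cells (medians 0.25 and 0.20) and below 0 between treated genotypes (-0.36 and -0.24), with *Rps16* and *Rps3a* apart from the rest.

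The start sites of some called genes are shown because the pyrimidine run at the 5′ end marks the TOP class. Each window runs from 10 bases before to 20 bases from the RefSeq start site on (GRCm38.p6, coding strand, 5′ to 3′), with the letters CTTTC in capitals where present.
Rpl13a: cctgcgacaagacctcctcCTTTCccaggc
Rpl27a: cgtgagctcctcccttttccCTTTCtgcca
Rps15a: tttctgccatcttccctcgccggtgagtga
Rps24: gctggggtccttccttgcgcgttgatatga
These lie at chr7:45128726-45128755 (minus strand), chr7:109519185-109519214 (plus), chr7:118116128-118116157 (minus) and chr14:24490668-24490697 (plus), and *Rps24* has a further listed start. Of the 83 members 62 were found in the RefSeq start site table by symbol. CTTTC stood within 15 bases of a listed start, on the coding strand, in 17 of these 62 (27.4%) and in 4.76% of the 27025 genes of the table, and on the opposite strand in 3.23% and 4.21%. Among the 14 members in the table that were called lower between treated genotypes, 4 held it. A match is a description of these letters and not a measured start of transcription. Other runs of pyrimidines after a cytosine, such as that in the *Rps15a* window, were not searched, so these shares do not count TOP mRNAs.

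Genes related to the ribosome were read beside the members. Of the ribosomal protein genes with other symbols, *Fau* and *Gnb2l1* were tested and neither was called in any comparison. *Gnb2l1*, the scaffold protein of the small subunit, was at 1564 and 1451 CPM in control cells and at 2193 and 1798 CPM in treated ones, and between 1441 and 1722 CPM in the libraries labelled KO. Of 19 further TOP genes of translation, 2 (10.5%, against 6.57% of all genes) were called lower in the treated libraries labelled KO than in treated control cells. These were the nucleolar chaperone gene *Npm1* (-0.76, adjusted p = 0.0092) and the initiation factor subunit gene *Eif3k* (-0.62, adjusted p = 0.0158). None of the 19 was called in the other comparisons. Their medians were -0.11 without TGF-β, 0.22 with TGF-β in control cells, 0.11 in the libraries labelled KO and -0.23 between treated genotypes.

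Among 13 regulators of TOP mRNA translation and ribosomal protein transcription, 2 fell with TGF-β in control cells, where 4.47% of all genes did, and between treated genotypes 4 were higher and 1 lower, where 8.47% and 6.57% of all genes were. In control cells *Mtor* fell with TGF-β from 82.6 and 78.5 to 50.7 and 52.2 CPM (-0.65, adjusted p = 0.0205). *Eif4ebp2*, a translation repressor inhibited by mTOR, fell as well (-0.95, adjusted p = 0.0339). Between treated genotypes *Mtor* (0.79, adjusted p = 0.0067), *Rptor*, its partner in complex 1 (0.80, adjusted p = 0.0381), *Tsc2*, an inhibitor of that complex (0.71, adjusted p = 0.0183), and *Eif4ebp2* (0.86, adjusted p = 0.0321) were higher in the libraries labelled KO. *Eif4e*, the cap-binding factor, was lower in these libraries without TGF-β (-0.82, adjusted p = 0.0446) and with it (-0.55, adjusted p = 0.0494). The other 8 were not called in any comparison. The regulators were not split by chromosome, and the part of the lower values on chromosomes 3 and 7 was not tested for them.

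The 80 genes of mitochondrial ribosomal proteins, of which 79 were tested, gave medians of 0.01 between untreated genotypes, 0.18 with TGF-β in control cells, -0.11 with TGF-β in the libraries labelled KO and -0.36 between treated genotypes, the last like that of the cytosolic large subunit. Between treated genotypes 14 of them (17.7%) were called lower in the libraries labelled KO and 1, *Mrpl12* (1.76, adjusted p = 0.00109), higher. *Mrpl47* (-0.99), *Mrpl17* (-0.84) and *Mrps21* (-0.82) were the lowest. This set was not split by chromosome, and the part of the lower values on chromosomes 3 and 7 was not tested. Of the 85 tested pseudogene rows, 3 (3.53%) were higher and 6 (7.06%) lower in that comparison, against 8.47% and 6.57% of all genes, with *Rpl7a-ps10* (-1.87), *Rps24-ps2* (-1.42) and *Rpl30-ps10* (-1.39) lowest.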

How the data were processed

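RNA-seq of 8 NMuMG libraries was analysed from the whole-number counts per gene that the authors deposited, without normalization. By the paper's methods, reads were aligned with subjunc and duplicates removed. The submitters' processing notes name HISAT2, limma and mm10. Counting tool, strand setting and treatment of reads with several places are not given in the sources used here. Paper and labels also differ on the kit and read layout, and the 331-base 7SK row held up to 602 counts per base in 1 library. Identifiers are those of GENCODE vM1 on NCBIM37 (mm9).

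edgeR 4.0.16 (R 4.3.3) gave CPM with TMM factors and quasi-likelihood tests on the 13028 genes passing filterByExpr, in a model of the 4 groups over all 8 libraries without a block (biological coefficient of variation 0.18). Shares carry 95% Wilson intervals. Called members, the 2 highest and lowest per comparison and subunit, paralogue pairs, stalk and 5S-binding members, the 3 highest and lowest levels per subunit and untested members were named, apart from a few that are not reported here. Members and lists were chosen with earlier results of these data known. Coding windows were searched with Python 3.11. In counts simulated from these libraries, comparing treated genotypes over 13028 genes, 98 of 100 genes with a log2 change of 2 were recovered, as were 55 of 100 with a change of 1. Alternatives were DESeq2 1.42.0, RLE factors, TMM factors without the members, library totals, no filter, a replicate block, the libraries of a comparison alone, each library left out, other denominators and lengths, and, added after seeing the data, GC offsets, an exchanged block and pseudogene rows added to parents. *Rpl41* and *Rps4l* were not matched by symbol and are not analysed here.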

Additional observations from a re-analysis of the deposited data

Results flagged for a closer look

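The share of counts on the members changed in opposite directions with TGF-β, upwards in every control library and downwards in every library labelled KO, without overlap between treated and untreated libraries. For the large subunit the mean share changed by 0.145 percentage points in control cells and by -0.0792 in the libraries labelled KO, and for the small subunit by 0.102 and -0.0325. These differences were not tested. On the TMM scale the medians in the libraries labelled KO were slightly above 0, so the direction there depends on the scaling.

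2 called members showed such opposite changes in CPM, *Rpl35a* with 12.3 and -2.9 CPM and *Rps16* with -8.92 and 10.4 CPM, in control libraries and libraries labelled KO. Neither passed the interaction test. Of the 80 members 3 rose in control libraries and fell in those labelled KO without overlap, 3.75%, and of all tested genes 2.69% did. In the opposite direction 2 members moved, 2.5%, against 2.57% of all tested genes.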

How the results depend on the processing

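No call among the named results changed its direction under the alternatives run. For the members called between untreated genotypes (1), 3 were called without a filter (3.69% of all genes), 6 in the libraries of the comparison alone (6.48%), 4 with GC offsets (2.27%), and 0 to 2 with a library left out (0.305% to 2.93%). With TGF-β in control cells (6 called), DESeq2 called 10 (11.1% of all genes), library totals 1 (10.9%), no filter 12 (9.88%), the libraries alone 0 (3.74%), GC offsets 12 (11.5%) and fits without a library 0 to 10 (1.05% to 11.1%). With TGF-β in the libraries labelled KO (0 called), no filter gave 3 (8.95%), the libraries alone 1 (7.47%), added pseudogene rows 1 (6.88%) and fits without a library 0 to 3 (0.995% to 10.4%). Between treated genotypes (20 called), the libraries alone gave 3 (3.21%) and fits without a library 4 to 18 (3.57% to 20.7%). For the interaction (0 called), DESeq2 and no filter gave 1 each (0.331% and 1.03%) and fits without a library 0 to 1 (0% to 0.0451%). In the fits that left out a library, the remaining replicate was assumed to vary like the other groups. The cause of these shifts was not tested, apart from the fewer libraries of some fits.

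The small subunit median between untreated genotypes was -0.17 with GC offsets and -0.15 to -0.042 without a library. With library totals, the TGF-β median of the large subunit in control cells was 0.11, and those in the libraries labelled KO were -0.12 (large) and -0.086 (small). With a library left out, the TGF-β medians in control cells were 0.24 to 0.28 (large) and 0.12 to 0.33 (small), those in the libraries labelled KO were -0.0052 to 0.088 (large) and 0.048 to 0.13 (small), and the small subunit median between treated genotypes was -0.42 to -0.17. The total share of counts, 1.94%, 2.19%, 1.75% and 1.64% in control, treated control, untreated KO and treated KO libraries, became 2.18%, 2.48%, 1.97% and 1.84% of protein-coding counts and 2.51%, 2.77%, 2.25% and 2.17% with pseudogenes, and 1.67% for treated KO without the 3 RNAs lacking poly(A). Among genes with under 25% of windows elsewhere, the span was 164-fold in the large subunit, 31.9-fold without *Rpl24*, and 4.32-fold in the small. Per kb, *Rpl22l1* held 66.2% and *Rps27l* 90.3% of their pairs, and with pseudogene rows added *Rpl36al* held 44.2% of its pair.

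With the replicate number as a block, 1, 4, 0, 15 and 0 members and 1.15%, 6.38%, 5.19%, 11.4% and 0% of all genes were called in the 5 comparisons, in the order above. The deviations of same-numbered libraries from their group means correlated across genes by 0.10, 0.30, -0.01 and -0.47 in the first 4, so the numbers were not taken as pairing. With the numbers exchanged in 1 genotype, 24 members and 21.6% of all genes were called between treated genotypes.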
